A study of Mus musculus with 19 samples.

Results

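The 40 DNA replication genes described here encode the proteins that license origins, unwind DNA, copy it and supply the deoxynucleotides for copying. Their rows were found by gene symbol, and the list was drawn up with earlier results of these data known. All 40 were found in the table of 36172 genes, each on a single row, and all 40 were among the 15518 genes that passed the low-count filter. RNA of whole ovaries from female mice of the inbred strain C57BL/6 was sequenced at 3, 6, 9 and 12 months of age. The youngest 3 ages had 5 libraries each and the oldest had 4. No treatment or mutation was named for any age, so the comparisons made here ask how these transcripts differ between older and younger ovaries. Whether every library is a different animal is not stated in the labels, so a p-value here covers the spread among libraries, part of which may be technical.

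Replication starts when the origin recognition complex, with Cdc6 and Cdt1, loads the MCM helicase onto DNA, a step called licensing that geminin (Gmnn) blocks once S phase has begun. Cdc45 and the GINS complex then join the helicase to make it active, primase and DNA polymerase alpha lay down primers, and polymerases delta and epsilon extend them with the sliding clamp Pcna, which the RFC complex loads. Many of these genes are transcribed in late G1 and S phase under E2F transcription factors. In the ovary of an adult mouse the oocytes are not replicating, and the dividing cells are mainly the granulosa cells of growing follicles, with theca, stromal, endothelial and immune cells. In whole ovary RNA, fewer cells of a type and less RNA per cell cannot be told apart.

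The upstream sequence of the genes is shown first, because an E2F word is a feature that some members share. The choice by symbol did not use sequence. Many replication genes are known to be under E2F factors, so the list is not independent of this word. RefSeq promoters of GRCm38.p6, 250 bases before to 50 bases after the start site, were matched for 33 of the 40 genes. Gmnn, Mcm4, Gins1, Gins2, Prim2, Pole and Rfc2 are named only. Where a gene had several listed start sites, the one farthest upstream was used. Some annotated gene spans, such as those of Orc1 and Cdc6, begin farther upstream than the start site used. The words searched, on both strands, were TTTGGCGC, TTTCCCGC, TTTGCCGC and TTTCGCGC, and a word and its reverse complement can overlap. At least 1 such word lay in 13 of the 33 member promoters (39.4%). It lay in 3.87% of the promoters of 12215 genes tested and in 2.26% of all 32851 promoters in the table. Promoter GC content was similar, with a median of 57.3% in the members and 60.0% in the genes tested. A match is a description of letters and not a binding site. The promoters of 5 helicase subunits are printed 5′ to 3′ in lower case with E2F words in capitals. They lie at chr6:88898731-88899030, minus strand (Mcm2), chr1:20820263-20820562, minus strand (Mcm3), chr8:75109259-75109558, plus strand (Mcm5), chr1:128359656-128359955, minus strand (Mcm6) and chr5:138171834-138172133, minus strand (Mcm7).
Mcm2 promoter: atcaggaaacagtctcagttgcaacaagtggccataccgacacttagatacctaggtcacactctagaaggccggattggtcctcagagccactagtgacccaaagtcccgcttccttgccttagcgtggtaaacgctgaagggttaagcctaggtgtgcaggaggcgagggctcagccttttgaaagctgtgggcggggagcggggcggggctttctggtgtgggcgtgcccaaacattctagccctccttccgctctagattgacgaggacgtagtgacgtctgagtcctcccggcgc
Mcm3 promoter: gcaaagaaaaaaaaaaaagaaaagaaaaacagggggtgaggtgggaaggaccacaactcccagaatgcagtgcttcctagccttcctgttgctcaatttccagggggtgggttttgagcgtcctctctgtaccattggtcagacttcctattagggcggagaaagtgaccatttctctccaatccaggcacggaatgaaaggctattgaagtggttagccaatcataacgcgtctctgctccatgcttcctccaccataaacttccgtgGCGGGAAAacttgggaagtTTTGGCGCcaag
Mcm5 promoter: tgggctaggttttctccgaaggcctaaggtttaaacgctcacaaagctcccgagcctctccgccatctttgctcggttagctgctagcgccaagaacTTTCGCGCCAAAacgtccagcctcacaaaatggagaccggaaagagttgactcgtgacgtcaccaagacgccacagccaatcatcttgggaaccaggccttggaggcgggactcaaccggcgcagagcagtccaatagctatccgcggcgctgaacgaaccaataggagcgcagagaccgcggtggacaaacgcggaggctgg
Mcm6 promoter: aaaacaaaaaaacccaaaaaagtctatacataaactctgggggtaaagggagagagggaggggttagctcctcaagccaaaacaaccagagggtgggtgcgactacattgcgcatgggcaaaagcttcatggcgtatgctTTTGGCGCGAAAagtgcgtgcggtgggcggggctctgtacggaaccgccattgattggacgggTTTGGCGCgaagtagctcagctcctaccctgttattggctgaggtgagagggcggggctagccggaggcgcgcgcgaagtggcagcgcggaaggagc
Mcm7 promoter: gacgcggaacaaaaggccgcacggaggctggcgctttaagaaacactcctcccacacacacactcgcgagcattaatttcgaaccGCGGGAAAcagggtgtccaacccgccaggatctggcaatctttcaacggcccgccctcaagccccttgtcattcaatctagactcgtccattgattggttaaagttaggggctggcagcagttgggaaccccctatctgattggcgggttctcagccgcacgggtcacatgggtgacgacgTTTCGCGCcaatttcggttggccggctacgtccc
The Mcm6 promoter held 3 words, with 2 of them overlapping as a near-palindrome 110 bases upstream of the start site, and the Mcm5 promoter held an overlapping pair 153 bases upstream. The Mcm3 promoter held 2 words downstream of the start site, the Mcm7 promoter held 1 upstream and 1 downstream, and these letters were not found in the Mcm2 window.

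The other 9 members with a word belong to licensing, helicase activation, the polymerases and the clamp loader. Their words are shown with up to 12 bases on either side. The windows are Orc1 at chr4:108579415-108579446, Orc3 at chr4:34614964-34614995, Cdc6 at chr11:98908001-98908032, Cdt1 at chr8:122568035-122568064, Gins3 at chr8:95633506-95633537, Pola1 at chrX:93632274-93632305, Pold1 at chr7:44548766-44548788, Pole2 at chr12:69228161-69228192 and Rfc3 at chr5:151651189-151651230, each read along the strand of its gene.
Orc1 window: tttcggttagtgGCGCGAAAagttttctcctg
Orc3 window: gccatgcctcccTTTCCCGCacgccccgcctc
Cdc6 window: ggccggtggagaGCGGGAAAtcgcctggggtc
Cdt1 window: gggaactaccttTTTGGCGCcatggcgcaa
Gins3 window: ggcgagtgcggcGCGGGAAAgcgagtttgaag
Pola1 window: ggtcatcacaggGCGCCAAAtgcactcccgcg
Pold1 window: gcgtatcttgtgGCGGGAAAagc
Pole2 window: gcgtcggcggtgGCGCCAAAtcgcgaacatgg
Rfc3 window: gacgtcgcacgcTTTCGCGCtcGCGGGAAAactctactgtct
In Rfc3 both words lay at the start site, and in Cdc6 and Pola1 the word lay 138 bases upstream.

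Library totals ran from 10851519 to 14302207 estimated counts, and the members had from 9.00 (Orc1) to 2414 (Pcna) estimated counts in a library. Levels are given as CPM, a count scaled to the size of its library with TMM factors, and each log2 change is followed by its standard error (SE). Adjusted p-values are Benjamini-Hochberg values over all 15518 genes from edgeR's quasi-likelihood test, with a threshold of 0.05. Where a pair of log2 changes is given for a gene with no age, it is that at 12 months and then that at 9 months, both against 3 months. A summed level of 6 lymph node and B cell genes was 98.0 and 144 CPM in 9-month replicates 1 and 2 and 215 CPM in 12-month replicate 2, against 2.90 to 14.6 CPM in the other 16 libraries. Counts of members are therefore also given without those 3 libraries, though the share of all genes that fell is not given for that setting.

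Transcripts of the replication genes were lower in ovaries of 12 and 9 months than in ovaries of 3 months, and the step in which members passed the test was that between 6 and 9 months. At 12 months against 3 months 23 of the 40 genes fell and 0 rose. Of all genes tested 11.5% fell in that comparison. At 9 months against 3 months 35 fell and 0 rose, where 13.6% of all genes fell. The median log2 change of the members was -0.46 at 12 months and -0.58 at 9 months, where the median of all genes was 0.02 and 0.01. Both comparisons use the same 3-month libraries. Along age as a linear trend, given as the change over 9 months, 33 members fell and 0 rose, where 14.8% of all genes fell and the members' median was -0.60. Without the 3 libraries with lymph node transcripts 29 fell along the trend.

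The 12-month result rests more on single libraries than the 9-month result. Without 12-month replicate 3 the members that fell at 12 months numbered 9, without 3-month replicate 1 they numbered 14, and without 3-month replicate 3 or 3-month replicate 5 they numbered 15. Of the 23 genes, 9 fell whichever library was left out, and they were Orc2, Cdc6, Mcm2, Mcm4, Mcm5, Mcm6, Pola1, Rfc4 and Rrm1. For the other 14, the call was lost without 1 library for Mcm7, Mcm10, Pole, Rpa1 and Lig1 (12-month replicate 3 each time), and without any of 4 to 9 libraries for Cdt1, Gmnn, Gins1, Prim2, Pcna, Rfc1, Rfc3, Rpa2 and Rrm2. At 9 months 28 of the 35 fell whichever library was left out, and the count ran from 28 to 36. The other 7 were Orc1, Gins3, Pola2, Pold1, Pold2, Rfc2 and Rfc5.

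By single steps, no member passed the threshold between 3 and 6 months or between 9 and 12 months. At 6 months against 3 months edgeR called 0 members, DESeq2 and limma-trend 0, and 2 members (Rfc3 and Rfc4) had an unadjusted p under 0.05. The median log2 change was -0.14, and 0.0193% of all genes changed. At 9 months against 6 months, a comparison chosen after seeing the data, 27 of the 40 members fell and 0 rose, with a median of -0.44, and 9.8% of all genes fell. Without 9-month replicate 2 the count was 17, and without the 3 libraries with lymph node transcripts it was 10 with a median of -0.40. At 12 months against 9 months edgeR called 0 members, limma-trend 0 and DESeq2 1 (Rfc2, higher), and 7 had an unadjusted p under 0.05. In that step 0% of all genes were called by edgeR, while 2152 had an unadjusted p under 0.05, DESeq2 called 252 and limma-trend 2. The estimated change was above 0 for 33 of the 40 members, with a median of 0.20. Without the 3 libraries that median was 0.10. The mean level was lowest at 9 months for 33 members and at 12 months for the other 7.

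**Figure D1:**
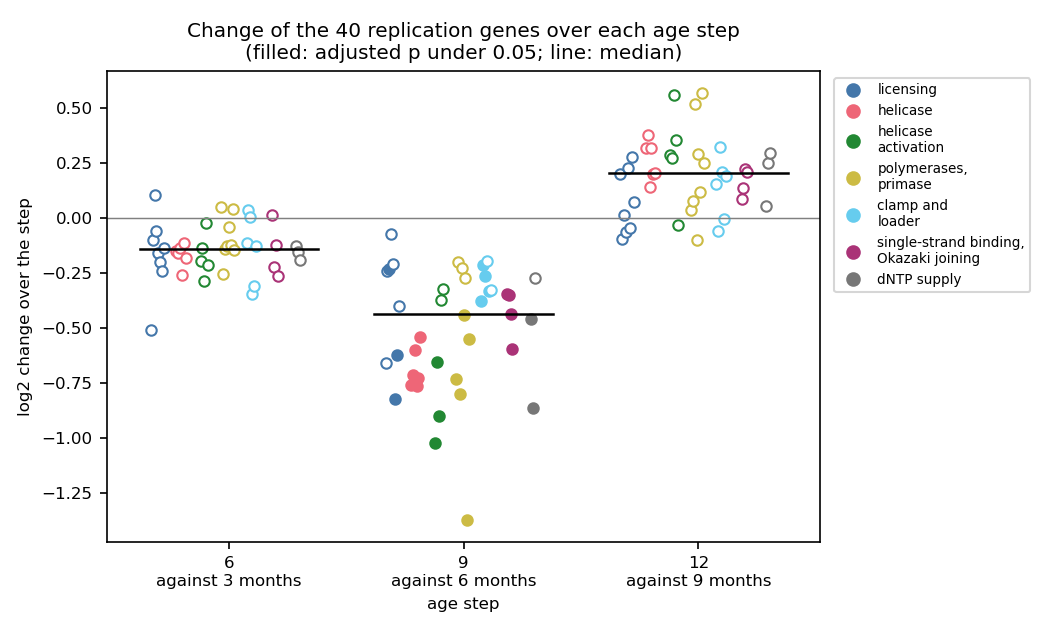
Log2 change (vertical axis) of each of the 40 replication genes over the steps 6 against 3 months, 9 against 6 months and 12 against 9 months, coloured by role, with filled points for an adjusted p under 0.05 and a line at the median. Filled points, 27 in all, appear only in the middle step, where the medians are -0.14, -0.44 and 0.20.

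The libraries of one age did not lie at the same level. The mean log2 CPM over the 40 genes, relative to the 3-month mean, was 0.26, -0.26, 0.13, -0.26 and 0.13 in 3-month replicates 1 to 5 and -0.09, -0.35, -0.13, -0.15 and 0.05 in the 6-month replicates. It was -0.55, -0.89, -0.56, -0.78 and -0.46 in the 9-month replicates and -0.50, -0.38, -0.67 and -0.29 in the 12-month replicates. All 9-month libraries and all 12-month libraries lay below all 3-month libraries on this mean, and 12-month replicate 4 lay above 6-month replicate 2. At 3 months replicates 2 and 4 held the lowest value of their age for 19 members each, and replicate 1 held the highest for 26. At 6 months replicate 2 was lowest for 26 members, at 9 months replicate 2 was lowest for 27, and at 12 months replicate 3 was lowest for 22.

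**Figure D2:**
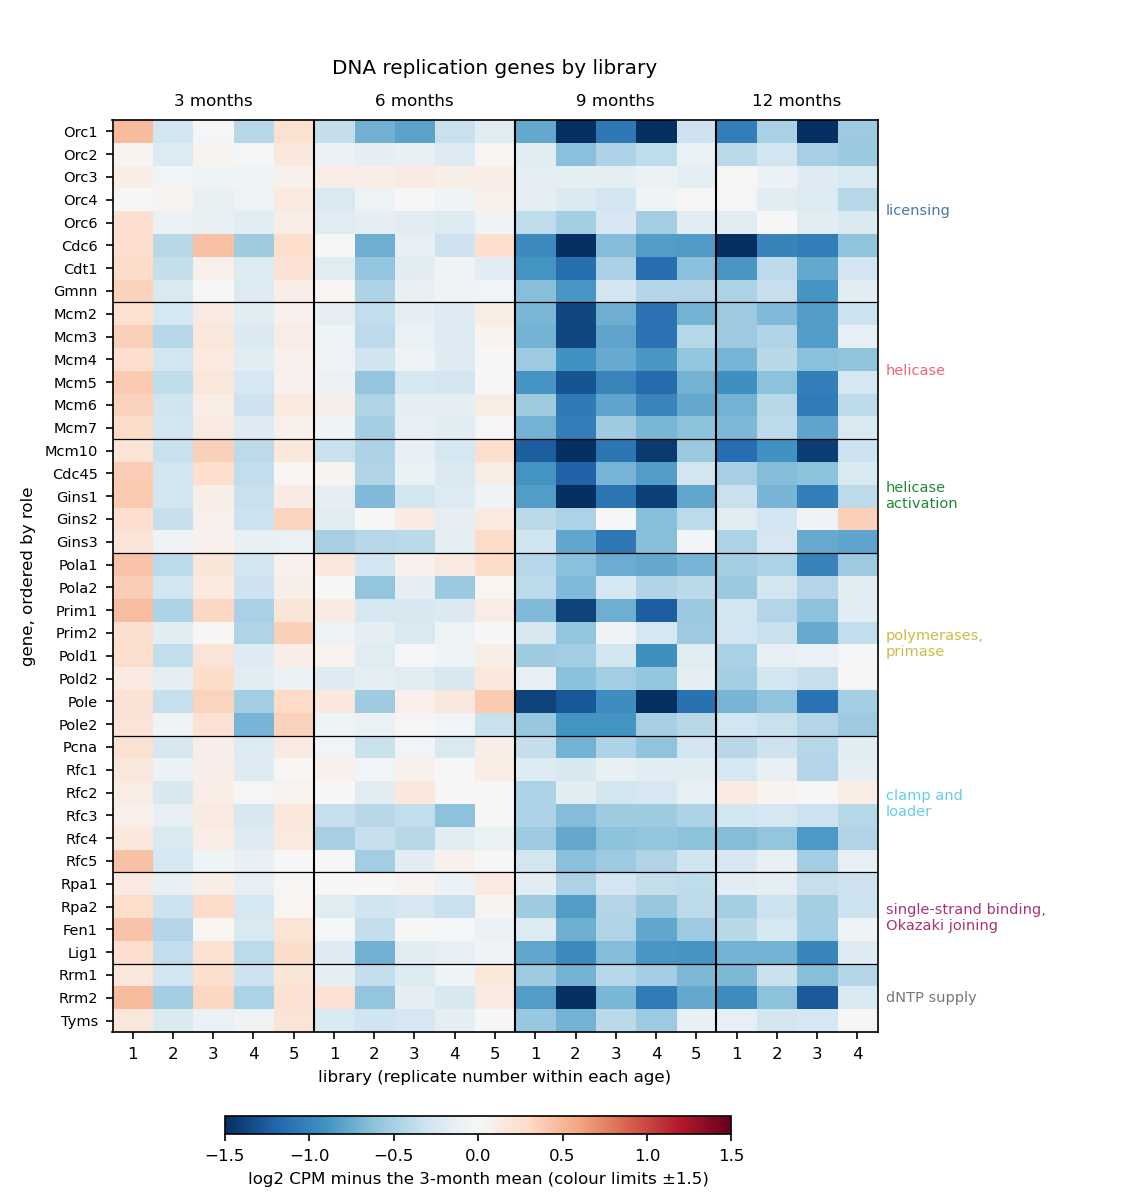
Each of the 40 genes (rows, ordered by role) in each of the 19 libraries (columns, by age and replicate), coloured by log2 CPM minus the mean of the 3-month libraries. Blue, lower, fills the 9-month and 12-month columns for most genes, palest for Orc3, Orc4, Rfc1 and Rfc2, and 3-month replicates 2 and 4 are pale blue.

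Among the 8 licensing genes 4 fell and 0 rose at 12 months, and 6 fell at 9 months. The origin recognition complex marks the sites where helicases are loaded. Its subunit Orc2 had the smallest p of this group. Orc2 measured 73.4, 62.1, 73.4, 69.8 and 79.8 CPM at 3 months and 67.3, 64.9, 66.1, 62.7 and 72.8 CPM at 6 months. It measured 63.6, 46.2, 51.9, 54.8 and 66.4 CPM at 9 months and 53.9, 58.5, 50.6 and 48.6 CPM at 12 months. Every 12-month library lay below every 3-month library, and the log2 change was -0.44 ± 0.10 (adjusted p = 0.00452). The 9-month libraries overlapped those of 3 months, with a log2 change of -0.34 ± 0.09 (adjusted p = 0.00955). Orc6, the smallest subunit, had the largest p at 12 months. Orc6 measured 38.9, 30.5, 30.1, 29.01 and 34.9 CPM at 3 months and 28.7, 29.3, 28.9, 28.1 and 31.4 CPM at 6 months. It measured 25.005, 22.8, 27.1, 22.6 and 28.9 CPM at 9 months and 28.9, 32.5, 28.9 and 27.95 CPM at 12 months. The 12-month libraries overlapped those of 3 months and the log2 change was -0.14 ± 0.09 (adjusted p = 0.284). At 9 months all lay below the 3-month libraries, and the log2 change was -0.37 ± 0.09 (adjusted p = 0.00565).

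The largest ORC subunit, Orc1, which together with Cdc6 forms part of the ATPase ring that loads the helicase, had the lowest level of all members per length, 2.13 CPM per kilobase of transcript at 3 months. Orc1 measured 8.78, 5.16, 6.17, 4.66 and 7.36 CPM at 3 months and 4.84, 3.75, 3.53, 4.93 and 5.51 CPM at 6 months. It measured 3.63, 2.02, 2.89, 0.702 and 5.02 CPM at 9 months and 2.97, 4.44, 1.48 and 4.23 CPM at 12 months. All 12-month libraries lay below those of 3 months, but the log2 change of -0.97 ± 0.38 (adjusted p = 0.0733) did not pass. At 9 months replicate 4 was the lowest and replicate 5 overlapped the 3-month range, and the log2 change was -1.17 ± 0.36 (adjusted p = 0.0232), a call lost without 3-month replicate 1, 3-month replicate 5 or 9-month replicate 2. Its annotated span overlaps Prpf38a by 3632 bases, and the part of reads from that neighbour was not tested. The subunits Orc3 and Orc4 had log2 changes of -0.12 ± 0.05 (adjusted p = 0.116) and -0.20 ± 0.08 (adjusted p = 0.0996) at 12 months and of -0.13 ± 0.05 (adjusted p = 0.0661) and -0.13 ± 0.08 (adjusted p = 0.229) at 9 months. Against 6 months, Orc3 fell at 9 months (-0.23 ± 0.05, adjusted p = 0.00486) and Orc4 did not (-0.07 ± 0.08, adjusted p = 0.556). All 9-month libraries of Orc3 lay below all those of 3 and 6 months. Orc3 also fell along the trend (adjusted p = 0.0441), a call lost without any of 15 libraries. Per kilobase the levels at 3 months were 37.3 CPM for Orc3, 22.3 for Orc6, 20.1 for Orc2 and 15.9 for Orc4, all above Orc1. Whether Orc1 changed more than the other subunits was not tested.

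Cdc6, the loading factor that is made anew in G1, fell at 12 months by 1.07 on the log2 scale. Cdc6 measured 16.96, 10.6, 19.2, 9.77 and 17.05 CPM at 3 months and 14.2, 8.51, 13.1, 11.4 and 16.9 CPM at 6 months. It measured 7.26, 4.32, 8.97, 7.88 and 7.84 CPM at 9 months and 4.93, 7.04, 6.82 and 9.29 CPM at 12 months. No 12-month or 9-month library reached the lowest 3-month library. The log2 change was -1.07 ± 0.25 (adjusted p = 0.00659) at 12 months and -1.02 ± 0.23 (adjusted p = 0.00394) at 9 months. Cdt1, its partner in loading the helicase, had log2 changes of -0.58 ± 0.17 (adjusted p = 0.0222) and -0.86 ± 0.16 (adjusted p = 0.00114). Geminin, the inhibitor of Cdt1, fell as well. Gmnn measured 27.99, 18.7, 21.96, 19.02 and 23.5 CPM at 3 months and 22.4, 15.9, 20.4, 20.96 and 21.4 CPM at 6 months. It measured 14.04, 11.95, 18.2, 16.2 and 16.1 CPM at 9 months and 15.8, 17.3, 11.9 and 19.5 CPM at 12 months. All 9-month libraries lay below those of 3 months, while 12-month replicate 4 lay above 3-month replicates 2 and 4. The log2 change of Gmnn was -0.46 ± 0.16 (adjusted p = 0.0377) at 12 months and -0.54 ± 0.15 (adjusted p = 0.0116) at 9 months, and the 12-month call was lost without any of 5 libraries.

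The 6 subunits of the MCM helicase, Mcm2 to Mcm7, which form a ring around DNA, had similar log2 changes. At 12 months 5 of 6 fell, and the log2 changes of all 6 ran from -0.71 to -0.49, and at 9 months all 6 fell, from -1.02 to -0.72. Mcm4 had the smallest p at 12 months of the 6. Mcm4 measured 102, 70.01, 94.7, 75.8 and 89.8 CPM at 3 months and 81.9, 69.4, 81.3, 75.1 and 85.1 CPM at 6 months. It measured 58.6, 45.5, 50.8, 46.6 and 57.3 CPM at 9 months and 52.8, 64.2, 55.3 and 56.1 CPM at 12 months. All 12-month and all 9-month libraries lay below all 3-month libraries. The log2 change was -0.60 ± 0.11 (adjusted p = 0.00156) at 12 months and -0.74 ± 0.10 (adjusted p = 0.000109) at 9 months. Mcm3 had the largest p. Mcm3 measured 94.8, 54.9, 83.6, 63.6 and 80.3 CPM at 3 months and 70.99, 56.2, 69.3, 64.8 and 76.4 CPM at 6 months. It measured 45.4, 28.7, 42.7, 34.2 and 55.1 CPM at 9 months and 50.5, 54.02, 41.4 and 68.2 CPM at 12 months. Replicate 4 at 12 months and replicate 5 at 9 months overlapped the 3-month range, and the log2 change of -0.49 ± 0.18 (adjusted p = 0.0592) did not pass. At 9 months it was -0.87 ± 0.17 (adjusted p = 0.00167).

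Mcm2 is the subunit at the gate of the ring and a common marker of cells in the division cycle. Mcm2 measured 87.9, 62.4, 81.4, 67.1 and 78.2 CPM at 3 months and 67.6, 57.7, 68.1, 65.3 and 80.5 CPM at 6 months. It measured 46.5, 28.9, 44.9, 34.6 and 45.7 CPM at 9 months and 51.3, 47.1, 41.8 and 59.9 CPM at 12 months. All 12-month and 9-month libraries lay below those of 3 months, with 12-month replicate 4 the closest. Mcm2 had a mean of 50.01 ± 7.67 CPM (SD, n = 4) at 12 months, against 75.4 ± 10.4 CPM (SD, n = 5) at 3 months. The log2 change was -0.59 ± 0.14 (adjusted p = 0.0076) at 12 months and -0.91 ± 0.13 (adjusted p = 0.000204) at 9 months. Mcm5 had the largest change of the ring at 9 months, -1.02 ± 0.17 (adjusted p = 0.000396), and -0.71 ± 0.18 (adjusted p = 0.00913) at 12 months. Mcm6 had a log2 change of -0.64 ± 0.16 (adjusted p = 0.00982) and Mcm7 of -0.52 ± 0.13 (adjusted p = 0.0113) at 12 months. Per kilobase the 6 subunits lay at 33.996 (Mcm7), 29.6 (Mcm6), 24.9 (Mcm3), 24.1 (Mcm4), 22.4 (Mcm2) and 19.1 (Mcm5) CPM per kilobase at 3 months. At 9 months they lay at 20.6, 16.5, 13.6, 14.4, 11.9 and 9.42 CPM per kilobase in the same order of genes.

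**Figure D3:**
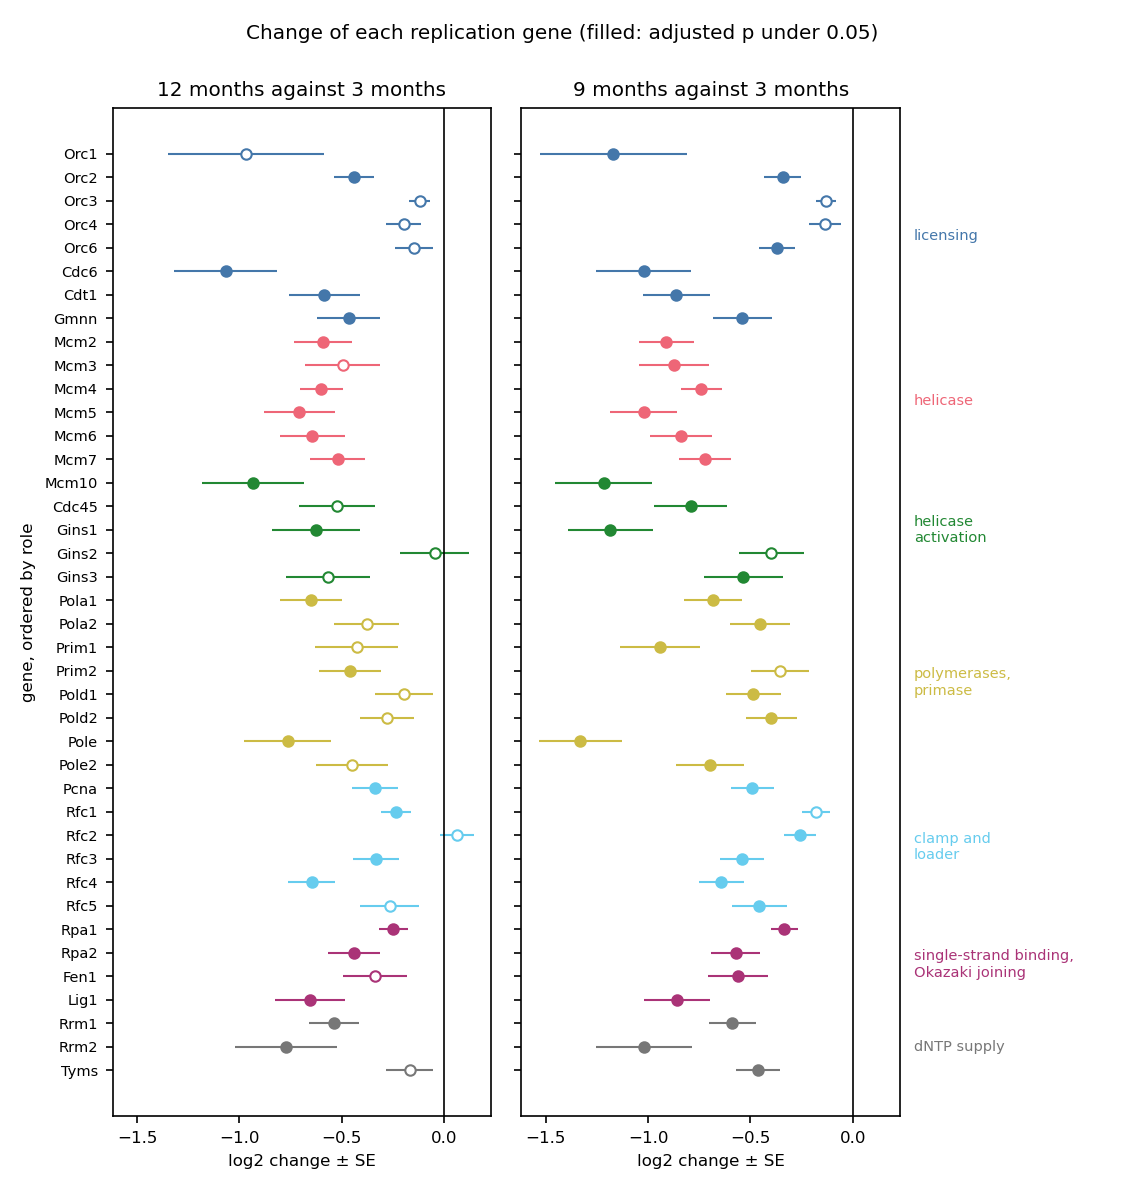
Log2 change ± SE (horizontal axes) of each of the 40 genes (rows, coloured by role) at 12 months against 3 months, left, and at 9 months against 3 months, right, with filled points for an adjusted p under 0.05. The left panel has 23 filled points and the right panel 35, all below 0, and Rfc2 at 12 months is the only point above 0 in either panel.

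Of the 5 genes that activate the helicase 2 fell at 12 months and 4 at 9 months. Mcm10, a scaffold needed for the loaded helicase to start unwinding, had the smallest p. Mcm10 measured 18.2, 12.4, 20.1, 11.95 and 17.5 CPM at 3 months and 12.4, 11.3, 14.4, 12.98 and 18.8 CPM at 6 months. It measured 6.55, 4.32, 7.30, 5.69 and 10.6 CPM at 9 months and 7.04, 8.26, 5.79 and 12.5 CPM at 12 months. All 9-month libraries lay below those of 3 months, and 12-month replicate 4 overlapped them. Mcm10 had a mean of 8.39 ± 2.90 CPM (SD, n = 4) at 12 months, against 16.02 ± 3.64 CPM (SD, n = 5) at 3 months. The log2 change was -0.93 ± 0.25 (adjusted p = 0.0133) at 12 months, a call lost without 12-month replicate 3, and -1.22 ± 0.24 (adjusted p = 0.00132) at 9 months. Cdc45 is the helicase cofactor whose binding marks a fired origin. Cdc45 measured 18.5, 11.7, 16.9, 11.01 and 14.5 CPM at 3 months and 14.7, 10.4, 13.3, 12.3 and 15.4 CPM at 6 months. It measured 7.57, 6.05, 8.75, 7.88 and 11.7 CPM at 9 months and 10.01, 9.03, 9.27 and 12.2 CPM at 12 months. The ages overlapped in both comparisons, with 1 library above the 3-month minimum at each older age. The log2 change of Cdc45 was -0.52 ± 0.19 (adjusted p = 0.0507) at 12 months, just outside the threshold, and -0.79 ± 0.18 (adjusted p = 0.00335) at 9 months.

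The GINS complex holds Cdc45 and the MCM ring together. Gins1 had log2 changes of -0.63 ± 0.22 (adjusted p = 0.0438) at 12 months and -1.19 ± 0.21 (adjusted p = 0.000623) at 9 months. The 12-month call of Gins1 was lost without any of 9 libraries, among them 3-month replicates 1, 3 and 5. Gins2 had the largest p at 12 months of this group. Gins2 measured 14.9, 9.79, 13.1, 9.91 and 15.7 CPM at 3 months and 11.1, 12.5, 13.6, 11.2 and 13.8 CPM at 6 months. It measured 9.39, 8.93, 12.4, 7.96 and 9.44 CPM at 9 months and 11.1, 10.2, 11.9 and 15.9 CPM at 12 months. The 12-month libraries spread over the 3-month range, with replicate 4 just above it, and the log2 change was -0.04 ± 0.17 (adjusted p = 0.881) at 12 months and -0.40 ± 0.16 (adjusted p = 0.0755) at 9 months. Gins3 had log2 changes of -0.57 ± 0.21 (adjusted p = 0.0548) at 12 months and -0.54 ± 0.19 (adjusted p = 0.049) at 9 months, and the 9-month call was lost without any of 15 libraries. The difference between the subunits was not tested.

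Of the 8 polymerase and primase genes 3 fell at 12 months and 7 at 9 months. Pola1, the catalytic subunit of polymerase alpha that extends RNA primers, had the smallest p. Pola1 measured 61.3, 34.8, 51.96, 37.4 and 47.7 CPM at 3 months and 50.9, 37.3, 47.6, 50.2 and 55.2 CPM at 6 months. It measured 33.8, 29.4, 27.1, 26.8 and 28.002 CPM at 9 months and 32.1, 32.9, 22.8 and 31.2 CPM at 12 months. All libraries of 12 and 9 months lay below those of 3 months. Pola1 had a mean of 29.8 ± 4.71 CPM (SD, n = 4) at 12 months, against 46.6 ± 10.8 CPM (SD, n = 5) at 3 months. The log2 change was -0.65 ± 0.15 (adjusted p = 0.00681) at 12 months and -0.68 ± 0.14 (adjusted p = 0.00225) at 9 months. Its accessory subunit Pola2 had log2 changes of -0.38 ± 0.16 (adjusted p = 0.0887) and -0.45 ± 0.15 (adjusted p = 0.0305), and the 9-month call was lost without any of 6 libraries. The primase catalytic subunit Prim1 had log2 changes of -0.43 ± 0.20 (adjusted p = 0.138) at 12 months and -0.94 ± 0.19 (adjusted p = 0.00203) at 9 months, while the large primase subunit Prim2 had log2 changes of -0.46 ± 0.15 (adjusted p = 0.0356) and -0.36 ± 0.14 (adjusted p = 0.0708).

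Pole, the catalytic subunit of the leading-strand polymerase epsilon, had the largest change of all 40 genes at 9 months and was singled out after its values were seen. Pole measured 24.5, 16.5, 26.6, 14.6 and 25.9 CPM at 3 months and 23.5, 14.5, 22.1, 23.6 and 27.6 CPM at 6 months. It measured 7.89, 8.57, 10.95, 5.85 and 9.59 CPM at 9 months and 12.9, 13.7, 9.64 and 14.7 CPM at 12 months. All 9-month libraries lay below all libraries of 3 and 6 months, and 12-month replicate 4 came just above the lowest 3-month library. The level at 9 months was 2.52-fold lower than at 3 months, with a log2 change of -1.33 ± 0.20 (adjusted p = 0.000244). At 12 months the log2 change was -0.76 ± 0.21 (adjusted p = 0.0159), a call lost without 12-month replicate 3, and between 9 and 12 months it was 0.57 ± 0.22 (adjusted p = 0.262). The second subunit Pole2 had log2 changes of -0.45 ± 0.18 (adjusted p = 0.0726) and -0.70 ± 0.17 (adjusted p = 0.00539). Pold1, the catalytic subunit of the lagging-strand polymerase delta, had the largest p at 12 months. Pold1 measured 44.2, 28.3, 41.8, 32.1 and 39.3 CPM at 3 months and 38.01, 32.2, 36.2, 35.03 and 38.9 CPM at 6 months. It measured 25.2, 25.4, 30.3, 19.3 and 32.4 CPM at 9 months and 26.2, 33.7, 34.2 and 35.8 CPM at 12 months. The libraries of both older ages overlapped the 3-month range, and the log2 change at 12 months was -0.19 ± 0.14 (adjusted p = 0.343). At 9 months it was -0.49 ± 0.14 (adjusted p = 0.0138), a call lost without 3-month replicate 1. Its partner Pold2 had log2 changes of -0.28 ± 0.13 (adjusted p = 0.135) and -0.40 ± 0.12 (adjusted p = 0.026), and the 9-month call was lost without any of 5 libraries.

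**Figure D4:**
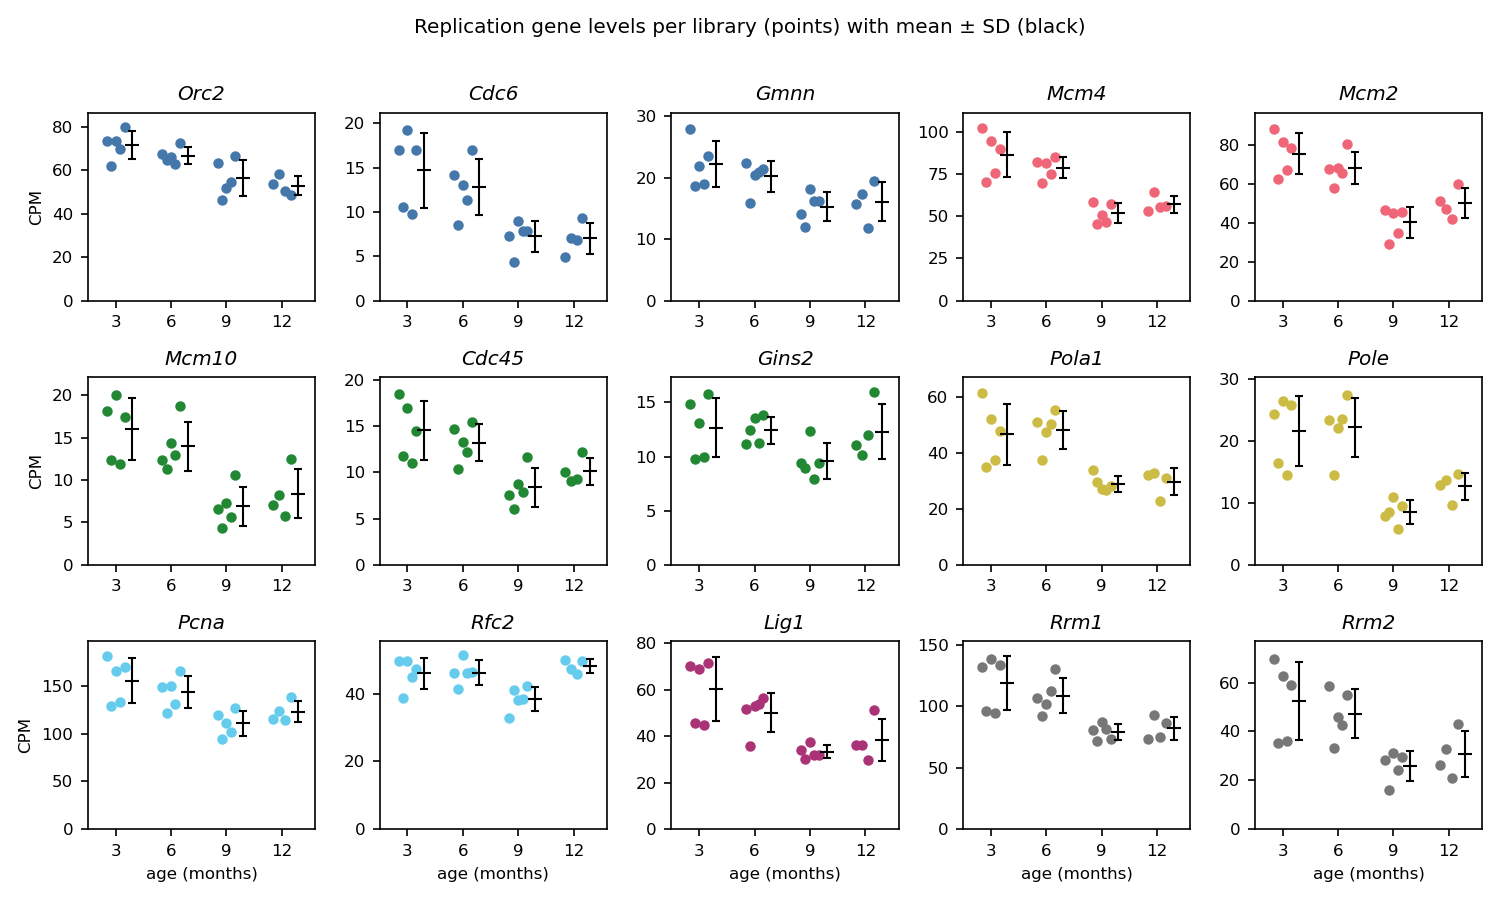
CPM (vertical axes, from 0) of 15 replication genes in each library by age in months, coloured by role, with mean ± SD in black (n = 5, 5, 5 and 4). Cdc6, Mcm2, Mcm10, Pole and Rrm2 lie low at 9 and 12 months, while Gins2 and Rfc2 at 12 months lie within the 3-month range or just above it.

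Pcna, the sliding clamp and the most abundant member per length, fell at both ages. Pcna measured 181, 129, 166, 133 and 169 CPM at 3 months and 149, 122, 150.3, 132 and 166 CPM at 6 months. It measured 120.0, 94.3, 111, 101 and 127 CPM at 9 months and 116, 124, 115 and 138 CPM at 12 months. All 9-month libraries lay below those of 3 months, and 12-month replicate 4 overlapped them. Pcna had a mean of 123 ± 10.9 CPM (SD, n = 4) at 12 months, against 156 ± 23.3 CPM (SD, n = 5) at 3 months. The log2 change was -0.34 ± 0.11 (adjusted p = 0.037) at 12 months and -0.49 ± 0.11 (adjusted p = 0.00267) at 9 months, and the 12-month call was lost without any of 6 libraries. Of the 5 RFC genes, which encode the loader that opens the clamp, 3 fell at 12 months and 4 at 9 months.

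Rfc4 had the smallest p of the loader and clamp genes. Rfc4 measured 23.2, 17.6, 22.5, 18.1 and 23.1 CPM at 3 months and 14.6, 16.3, 15.6, 18.5 and 19.4 CPM at 6 months. It measured 14.2, 12.1, 13.5, 13.7 and 13.5 CPM at 9 months and 13.2, 13.8, 11.3 and 15.1 CPM at 12 months. All libraries of 12 and 9 months lay below those of 3 months, with log2 changes of -0.65 ± 0.12 (adjusted p = 0.00167) and -0.64 ± 0.11 (adjusted p = 0.00052). Rfc2 had the largest p. Rfc2 measured 49.6, 38.6, 49.5, 44.97 and 47.4 CPM at 3 months and 45.96, 41.2, 51.3, 46.1 and 46.4 CPM at 6 months. It measured 32.9, 41.04, 37.9, 38.4 and 42.1 CPM at 9 months and 49.96, 47.1, 45.6 and 49.6 CPM at 12 months. The 12-month libraries lay in the upper part of the 3-month range, with replicates 1 and 4 just above it, and the log2 change was 0.06 ± 0.08 (adjusted p = 0.624). The 9-month libraries overlapped it too, and Rfc2 fell at 9 months, with a log2 change of -0.26 ± 0.08 (adjusted p = 0.0239), a call lost without any of 5 libraries. Rfc1, the large subunit, had log2 changes of -0.24 ± 0.07 (adjusted p = 0.0276) and -0.18 ± 0.07 (adjusted p = 0.0653). Rfc3 had log2 changes of -0.33 ± 0.11 (adjusted p = 0.0404) and -0.54 ± 0.11 (adjusted p = 0.00143), and Rfc5 of -0.27 ± 0.14 (adjusted p = 0.187) and -0.46 ± 0.13 (adjusted p = 0.0184). The 9-month call of Rfc5 was lost without 3-month replicate 1 or 9-month replicate 2.

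Of the 4 genes for single-strand binding and for joining Okazaki fragments, the short pieces of the lagging strand, 3 fell at 12 months and 4 at 9 months. Lig1, the ligase that seals the fragments, had the smallest p. Lig1 measured 70.2, 45.6, 68.8, 44.97 and 71.6 CPM at 3 months and 51.5, 35.7, 52.9, 53.97 and 56.5 CPM at 6 months. It measured 34.2, 30.3, 37.5, 32.1 and 31.9 CPM at 9 months and 36.04, 36.04, 29.9 and 51.3 CPM at 12 months. All 9-month libraries lay below those of 3 months, and 12-month replicate 4 overlapped them. The log2 change of Lig1 was -0.65 ± 0.17 (adjusted p = 0.0123) at 12 months, lost without 12-month replicate 3, and -0.86 ± 0.16 (adjusted p = 0.00108) at 9 months. Fen1, the nuclease that trims the flap before ligation, had the largest p. Fen1 measured 40.9, 22.4, 30.9, 26.02 and 35.1 CPM at 3 months and 29.97, 23.7, 30.6, 29.7 and 28.7 CPM at 6 months. It measured 26.3, 18.3, 22.2, 17.7 and 20.8 CPM at 9 months and 22.8, 25.3, 21.2 and 29.2 CPM at 12 months. Both older ages overlapped the 3-month range, with log2 changes of -0.34 ± 0.15 (adjusted p = 0.123) and -0.56 ± 0.15 (adjusted p = 0.00924). Rpa1 and Rpa2, subunits of the protein that coats single-stranded DNA, had log2 changes of -0.25 ± 0.07 (adjusted p = 0.0185) and -0.44 ± 0.13 (adjusted p = 0.0192) at 12 months and of -0.33 ± 0.07 (adjusted p = 0.00153) and -0.57 ± 0.12 (adjusted p = 0.00209) at 9 months.

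The deoxynucleotide genes Rrm1 and Rrm2 encode the large and the small subunit of ribonucleotide reductase, and Tyms encodes thymidylate synthase. Of these 3, 2 fell at 12 months and all 3 at 9 months. Rrm1 measured 132, 96.4, 139, 94.2 and 133 CPM at 3 months and 107, 91.9, 102, 113 and 131 CPM at 6 months. It measured 80.9, 71.7, 87.5, 81.7 and 73.7 CPM at 9 months and 73.7, 93.1, 75.1 and 86.3 CPM at 12 months. All libraries of 12 and 9 months lay below those of 3 months, with log2 changes of -0.54 ± 0.12 (adjusted p = 0.00583) and -0.59 ± 0.11 (adjusted p = 0.0014). Rrm2 is the subunit that is degraded outside S phase. Rrm2 measured 69.8, 35.04, 62.5, 36.1 and 58.8 CPM at 3 months and 58.6, 33.3, 46.03, 42.8 and 54.96 CPM at 6 months. It measured 28.2, 16.2, 31.3, 24.2 and 29.6 CPM at 9 months and 26.04, 32.8, 20.9 and 43.1 CPM at 12 months. All 9-month libraries lay below those of 3 months, and 12-month replicate 4 lay above 3-month replicates 2 and 4. The log2 change of Rrm2 was -0.77 ± 0.25 (adjusted p = 0.0346) at 12 months, a call lost without any of 6 libraries, and -1.02 ± 0.24 (adjusted p = 0.00479) at 9 months. Tyms had the largest p. Tyms measured 39.02, 29.8, 32.4, 33.3 and 39.4 CPM at 3 months and 29.5, 28.1, 28.9, 31.1 and 34.5 CPM at 6 months. It measured 23.3, 21.02, 26.2, 23.7 and 31.9 CPM at 9 months and 31.8, 28.6, 29.004 and 34.5 CPM at 12 months. The ages overlapped, and the log2 change was -0.17 ± 0.11 (adjusted p = 0.3) at 12 months and -0.46 ± 0.11 (adjusted p = 0.00419) at 9 months.

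Counted by libraries, 14 members had every 12-month library below every 3-month library, as did 9.75% of all genes tested. At 9 months against 3 months 24 members did so, and 9.42% of all genes. At 9 months against 6 months 19 members did so, and 7.74% of all genes. Of the 14, Orc1 and Gins3 did not pass the test at 12 months, while Mcm5 and Mcm10 were among the genes that passed it with overlapping libraries.

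Genes that work with the members were read from 5 further lists of 69 genes, of which 68 were tested and Supt16h was listed at 0. Of these 33 fell and 1 rose at 12 months, with a median log2 change of -0.38, where 11.5% of all genes tested fell. At 9 months 47 fell and 0 rose, with a median of -0.56, where 13.6% of all genes fell. Among 12 licensing and firing partners 8 fell at 12 months. They included Dbf4, the activator of the firing kinase (-0.84 ± 0.16, adjusted p = 0.00239), Topbp1, a scaffold for firing (-0.50 ± 0.10, adjusted p = 0.00311), the remaining ORC subunit tested, Orc5 (-0.42 ± 0.10, adjusted p = 0.00877), and Mcm8, an MCM relative with a role in meiotic recombination (-0.78 ± 0.20, adjusted p = 0.0101). Among 19 fork partners 7 fell and 1 rose. Top1 and Top2a, which remove supercoils, had log2 changes of -0.37 ± 0.08 (adjusted p = 0.00397) and -0.90 ± 0.20 (adjusted p = 0.00509), and Atad5, which unloads the clamp, and Wdhd1, which ties polymerase alpha to the helicase, of -0.61 ± 0.14 (adjusted p = 0.00581) and -0.67 ± 0.15 (adjusted p = 0.00583). Pold4, the smallest subunit of polymerase delta, was the 1 that rose, with a log2 change of 0.54 ± 0.19 (adjusted p = 0.0486), and is named after its value was seen.

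Among 8 nucleotide partners 2 fell, among them Dut, which removes dUTP (-0.49 ± 0.14, adjusted p = 0.0218). Dctd, a deaminase that makes dUMP, and Samhd1, which breaks dNTPs down, had values of -0.30 ± 0.18 (adjusted p = 0.247) and 0.39 ± 0.18 (adjusted p = 0.119). Among 8 chromatin assembly genes tested 6 fell. They included the histone chaperone Nasp (-0.64 ± 0.11, adjusted p = 0.00104), the remodeller Hells (-1.16 ± 0.20, adjusted p = 0.00147), the histone deposition subunit Chaf1a (-0.73 ± 0.15, adjusted p = 0.00388) and Uhrf1, which keeps DNA methylation through replication (-0.92 ± 0.20, adjusted p = 0.00486). Among 21 S phase regulators 10 fell and 0 rose. They included the ubiquitin ligase subunits Dtl (-1.07 ± 0.21, adjusted p = 0.00247), which marks Cdt1 for destruction, and Skp2 (-0.79 ± 0.16, adjusted p = 0.00311), the phosphatase Cdc25a (-0.50 ± 0.12, adjusted p = 0.00622) and E2f5 (-0.43 ± 0.11, adjusted p = 0.00832), an E2F of the repressor type. E2f4, another E2F of that type, was at 0.06 ± 0.07 and is named after its value was seen.

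Among the genes outside the list whose log2 CPM followed the members' mean most closely over the 19 libraries were Top2a, Brca1, Uhrf1 and Shcbp1. Their Pearson correlations were 0.98, 0.97, 0.97 and 0.97, over libraries that share ages and the same scaling, and they are given as a description. Their own log2 changes at 9 months against 3 months were -1.19, -1.20, -1.19 and -1.10.

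Markers of dividing cells and of oocytes moved with the members. The 8 mitosis genes, such as Mki67 and Cdk1, summed to 194 to 329 CPM at 12 months, with 7 of 8 called lower, against 324 to 492.9 CPM at 3 months. At 9 months they summed to 147 to 249 CPM, with 8 of 8 called lower. The 14 oocyte genes summed to 71.9 to 178 CPM at 12 months, with 13 called lower, against 386 to 605 CPM at 3 months, and to 23.3 to 172 CPM at 9 months, with all 14 called lower. Figla and Sohlh1 of that list were at 0 in 5 libraries each. The share of all genes tested that fell was 11.5% at 12 months and 13.6% at 9 months. Within ages the libraries lowest in the members were also low in these lists, except in the oocyte list at 6 months. At 9 months replicate 2 had the lowest sum of both, 147 CPM of mitosis and 23.3 CPM of oocyte genes, and at 12 months replicate 3 had 194 and 71.9 CPM, also the lowest of its age. At 6 months replicate 2, lowest in the members, had the lowest mitosis sum (320.3 CPM). Its oocyte sum of 313 CPM was the median of its age, which ran from 222 CPM in replicate 3 to 454 CPM.

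With the oocyte list as a covariate 0 of the 40 members were called in any of the 6 comparisons by edgeR, and 2 had an unadjusted p under 0.05 at 12 months against 3 months and 2 at 9 months against 3 months. The median log2 change was then -0.09 at 12 months and -0.14 at 9 months. Since the list itself falls with age, age and the oocyte list cannot be told apart in that fit, and the number of genes called among all 15518 was then 15 at 12 months and 0 at 9 months. The 8 granulosa genes of growing follicles, such as Amh, Fshr and Cyp19a1, summed to 1232 to 2677 CPM at 12 months against 1762 to 2533 CPM at 3 months, with 2 of 8 called lower and 0 higher. At 9 months they summed to 885 to 2469 CPM, with 2 called lower and 0 higher. Beside these counts, 11.5% of all genes tested fell at 12 months and 13.6% at 9 months. The genes of this list did not move together. At 12 months 4 of the 8 had a log2 change below 0 and 4 above, from -1.21 to 1.33. At 9 months 6 lay below 0 and 2 above, from -1.88 to 0.74. With the granulosa list as a covariate, an alternative chosen after seeing the data, 24 members fell at 12 months with a median of -0.45 and 23 fell at 9 months with a median of -0.52, and 4 fell at 9 months against 6 months. That covariate is a mean over genes that moved in both directions. The part of either cell type in the members' change was not tested by these fits.

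**Figure D5:**
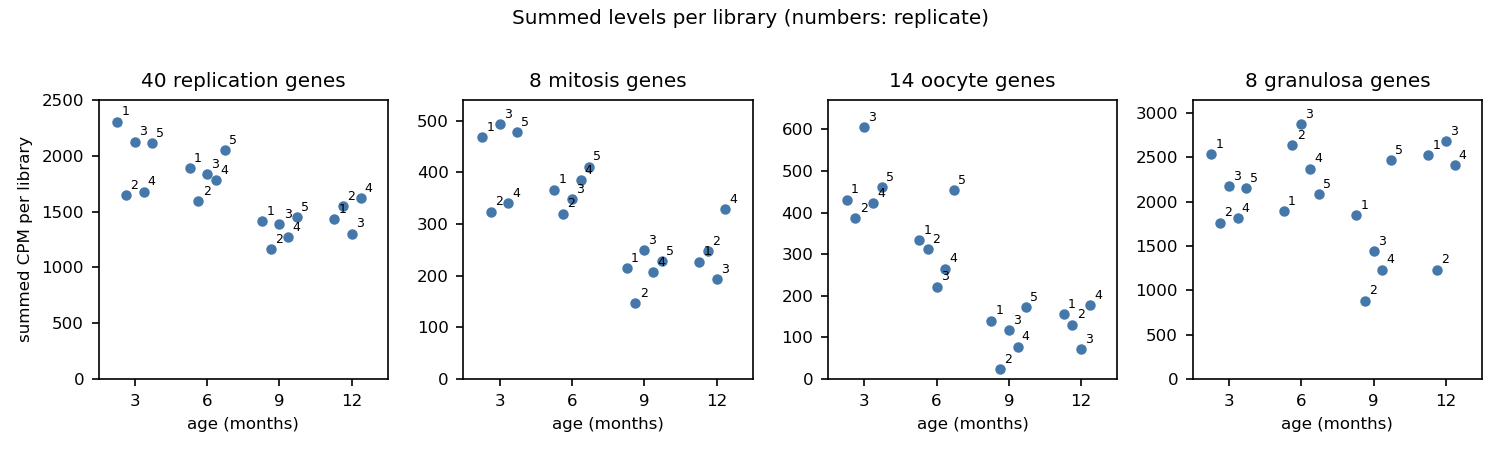
Summed CPM per library (vertical axes, from 0) of the 40 replication genes, 8 mitosis genes, 14 oocyte genes and 8 granulosa genes by age in months, with the replicate number beside each point. Replication, mitosis and oocyte sums are low in the 9-month and 12-month libraries, with 9-month replicate 2 at the bottom of its age in all 4 panels, while the granulosa sum at 12 months runs from 1232 to 2677 CPM.

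Genes of other cell types moved too. For comparison, of all 15518 genes tested 1693 were called higher and 1782 lower at 12 months. At 9 months 1754 were called higher and 2118 lower. The 4 macrophage genes summed to 173 to 270 CPM at 12 months, with 2 called higher, against 136 to 187 CPM at 3 months, and the 4 oviduct genes to 2406 to 5225 CPM against 1762 to 2866 CPM, with 2 called higher. At 9 months the macrophage genes summed to 155 to 299 CPM, with all 4 called higher, and the oviduct genes to 2158 to 6345 CPM, with 1 called higher. Replicate 2 of 9 months, the lowest in the members, had the highest sum of all 19 libraries in both lists. The 5 liver genes summed to 81.0, 199, 601, 98.8 and 32.9 CPM in 9-month replicates 1 to 5, against 26.8 to 46.6 CPM at 3 months. In 12-month replicate 4 they summed to 103 CPM. Of the 5 liver genes 4 were called higher at 9 months and 1 at 12 months. Of 4 T cell genes 4 were called higher at 12 months and 2 at 9 months, of 4 theca genes 2 were called lower at each, and of 4 corpus luteum genes 1 was called higher at each. The theca genes all lay below 0 at 12 months, but 2 lay above 0 at 9 months. In the corpus luteum list 2 genes lay below 0 and 2 above at each age. Its log2 changes ran from -2.39 to 1.45 at 12 months and from -2.60 to 1.56 at 9 months. The part of these cell types in the members' change was not tested. Without the 3 libraries with lymph node transcripts 20 members fell at 12 months with a median of -0.49, and 25 fell at 9 months with a median of -0.57. The labels number the libraries in order of age and give no batch, so handling order and age cannot be told apart.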

How the data were processed

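Ovaries of female C57BL/6 mice were frozen on dry ice, RNA was taken with a column kit and strand-keeping libraries were made, per the labels' protocols. Reads were placed on mm10, as the submitters' processing notes name it, while the aligner, the counter and its strand setting are not given in the sources. The spans of 11 members overlap another gene tested, so their reads are uncertain there. The authors deposited estimated counts that need not be whole for 36172 genes, which were rounded to whole numbers here. They also deposited log2 values set relative to the 3-month libraries, whose normalization the sources do not give, with a filtered table of 13869 genes. Each table has 1 column that matches no sample, not used here.

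Counts of all genes were tested with edgeR 4.0.16 (quasi-likelihood, robust, TMM, a mean per age over 19 libraries) in R 4.3.3, after filterByExpr (minimum count 10, minimum total 15). P-values were adjusted by the Benjamini-Hochberg method over 15518 genes, and a call needs an adjusted p under 0.05. Alternatives were DESeq2 1.42.0, limma-trend (limma 3.58.1) on the authors' log2 values, DESeq-type size factors, no low-count filter, a CPM of at least 1 in 4 libraries, only the ages compared, each library left out in turn, 3 libraries left out, an oocyte covariate and a length and GC correction. The comparison of 9 with 6 months and the granulosa covariate were added after seeing the data. Steps were checked on simulated counts with known folds. For 12 against 3 months, 35 of 67 genes changed 1.5-fold were recovered, 56 of 67 changed 2-fold and 65 of 66 changed 4-fold. That run made 16 false calls. For the trend the recovered numbers were 36, 46 and 65, with 7 false calls. A gene that was not called may therefore still have changed by a small fold. Pairs of libraries of one age differed by more than counting noise (chi-square per degree of freedom 5.11 to 38.9), so no pair was treated as a repeat deposit of one library. That does not show that they came from different animals.

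The members, lists and tests were chosen with earlier results of these data known. The value in every library is given for the member of each role with the smallest and the largest p at 12 months, and always for Mcm2, Pcna, Gmnn, Cdc45 and Rrm2. From each partner list the 4 genes with the smallest p are named, and the rule names 5 genes by likeness, and some genes the rule names are not reported here. Orc1, Cdc6 and Pole were added after their values were seen. Length per kilobase is the transcript length of the annotation. Promoters are RefSeq sequences of GRCm38.p6, whose chromosomes match mm10.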

Additional observations from a re-analysis of the deposited data

Results flagged for a closer look

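In 160 groups of 4 or 5 libraries (40 genes at 4 ages), 5 groups held a library far from the others of its age by Dixon's test, in 3 libraries in all, and chance flags about 1 in 20 groups. Among the 6-month libraries, replicate 2 was the lowest for Cdt1 (12.3 CPM, against 16.4 to 17.8 CPM in the others), for Fen1 (23.7 CPM, against 28.7 to 30.6 CPM) and for Lig1 (35.7 CPM, against 51.5 to 56.5 CPM). The same library was the lowest of its age for 26 of the 40 members. Replicate 5 of 6 months was the highest for Pold2 (45.6 CPM, against 34.6 to 37.0 CPM). Replicate 3 of 12 months was the lowest for Pola1 (22.8 CPM, against 31.2 to 32.9 CPM).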

How the results depend on the processing

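The members that fell numbered 23 at 12 months (9 to 26 with each library left out), 35 at 9 months (28 to 36), 33 along the trend (25 to 34) and 27 at 9 against 6 months (17 to 27), with 0 at 6 against 3 months and 0 at 12 against 9 months throughout. All genes changed numbered 3475 (2124 to 3806), 3872 (2784 to 4484), 4576 (3798 to 4853), 2676 (1721 to 3212), 3 (0 to 5) and 0 (0 to 278) in the same order. With the oocyte covariate members fell in 0 cases in each comparison, and genes changed numbered 15, 0, 21, 36, 0 and 0. With the granulosa covariate 23 members fell at 9 months and 4 at 9 against 6 months, and genes changed numbered 1897 and 638 there and 5 at 6 against 3 months. Without the 3 libraries with lymph node transcripts 10 members fell at 9 against 6 months and 8 genes changed at 6 against 3 months. At 6 against 3 months 47 genes changed by DESeq2 and 34 with only the ages compared. At 12 against 9 months 252 genes changed by DESeq2, with 1 member that rose, and 2 by limma-trend. With the oocyte covariate some members that fell turned above 0, none of them called: at 12 months Gins1 (0.12) and Rrm2 (0.0095), at 9 months Gins3 (0.014), Orc1 (0.079), Orc2 (0.00886) and Pold2 (0.084), and along the trend Cdc45 (0.089), Fen1 (0.0038), Gins1 (0.28), Mcm2 (0.0400), Mcm3 (0.22), Orc1 (0.0064), Pcna (0.0105), Pold2 (0.11), Prim1 (0.38) and Rrm2 (0.0270). The cause was not tested. No paired analysis was possible because the labels give no replicate number shared between ages. The sum of rows was not run, since no member has several rows. The lowest count of any member was 9.00 estimated counts, for Orc1.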

Other observations

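The 13 members with an E2F word in the promoter window had a median log2 change of -0.72 at 9 months against 3 months, with 12 of 13 called lower, and the 20 members without one had a median of -0.53, with 18 of 20 called lower. At 12 months the medians were -0.57 with 7 of 13 called lower and -0.40 with 11 of 20. The ranges overlapped at both ages, and the difference was not tested. Orc3 holds a word and did not pass at either age against 3 months (-0.12 ± 0.05 and -0.13 ± 0.05 on the log2 scale ± SE). It did fall at 9 months against 6 months (-0.23 ± 0.05, adjusted p = 0.00486) and along the trend (adjusted p = 0.0441). Mcm10, Rrm2 and Mcm2 hold none in this window and fell at both ages. These genes are examples only, and the part of E2F in the members' change was not tested. Other words were counted in the same windows. CCAAT, on either strand, lay in 66.7% of the 33 member promoters and in 38.5% of those of the genes tested, the GC box GGGCGG in 69.7% and 60.4%, and TTTGAA, the cell cycle homology region, in 12.1% and 12.3%.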
